A study of Mus musculus with 6 samples.

Results

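The 84 cytosolic ribosomal protein genes are the protein-coding genes whose symbols have the form Rpl or Rps with a number, together with Rplp0, Rplp1, Rplp2 and Rpsa and without the S6 kinases. They were picked by name among the 24376 gene IDs of each deposited table by a rule on symbols that uses no expression value, although the gene set itself was chosen with earlier results of these data known. Of the 84, 52 encode proteins or paralogs of the large ribosomal subunit and 32 of the small subunit. Another 4 gene IDs have the same form of name but no protein-coding type (Rpl6l, Rps3a2, Rps3a3 and Rps4l) and were left out. The measured levels fit the label: 63 of the 84 genes were among the 100 gene IDs with the highest mean TPM, a length-corrected share of all transcripts.

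Polyadenylated RNA was sequenced from 6 libraries of C57BL/6 mouse fetal liver progenitors, taken at E14.5 of gestation, enriched with a progenitor isolation kit and infected with retrovirus at once. In 3 libraries, called control here, the virus carried a control shRNA, and in the other 3, called shSamd14, an shRNA against Samd14, a gene for a sterile alpha motif protein. After 3 days in StemPro-34 medium, 200000 cells without surface CD71 and Ter119, which mark later erythroid stages, were lysed per library, and the labels name no selection of infected cells. No label says whether the numbered replicates are separate animals, cultures or infections, so p-values reflect only the spread between these libraries, which may be technical.

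Cytosolic ribosomes are built from ribosomal RNA and one set of proteins per subunit, and cells make these proteins in nearly equal numbers. Many of the mRNAs begin with a cytosine and a run of pyrimidines, the terminal oligopyrimidine (TOP) motif, through which mTORC1 and Larp1 control their translation. Red cell precursors depend strongly on ribosome supply: mutations in ribosomal protein genes such as Rps19, Rpl5 and Rpl11 cause Diamond-Blackfan anaemia, a failure of red cell production. The comparison asks whether lowering Samd14 went with a change in the mRNA of this gene set.

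TOP starts are shown because they are a feature that the choice by name did not use and that many of these genes are known for. RefSeq's table of promoters (GRCm38.p6) matched 64 of the 84 genes by symbol. A C at the annotated start followed by at least 4 pyrimidines (C or T), read on the transcribed strand only, was found in 13 of the 64 genes, 20.3%, against 3.01% of the 27025 genes in the table. In the 25-base windows below, which run from 10 bases before the start to the first 15 transcribed bases, capitals mark the run of C and T that begins with C at the start. The first 5 genes have such a run. Rpl22l1 and Rpl39, the genes with the lowest fold changes below, do not have it at RefSeq's start.
Rps6, chr4:86857353-86857377, minus strand: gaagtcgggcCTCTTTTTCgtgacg
Rps10, chr17:27635230-27635254, minus strand: gcgcacgcccCTTCCTTTCCagcct
Rps18, chr17:33955651-33955675, minus strand: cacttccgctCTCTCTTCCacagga
Rpl15, chr14:18270972-18270996, minus strand: agaaagccttCTTCCTTTCCTCTgg
Rpl35, chr2:39005117-39005141, minus strand: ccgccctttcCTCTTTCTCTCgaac
Rpl22l1, chr3:28805498-28805522, plus strand: gcgcaagcccgttctcttcccacgg
Rpl39, chrX:37085208-37085232, minus strand: gctccgcctctagcgacttcttcta

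In the Rpl22l1 window a run of C and T begins right after a G at the annotated start, but the first C comes after 2 T. The other genes with a TOP start were Rpl14, Rpl28, Rpl35a, Rpl38, Rplp2, Rps15a, Rps21 and Rps27, which made 7 large and 6 small subunit genes. With a looser rule, a run of at least 8 pyrimidines anywhere within 50 bases of the start, 53 of the 64 genes qualified, 82.8%, against 39.3% of genes in the table. Under the first rule, the 12 tested genes with a TOP start had a median log2 fold change between shSamd14 and control of -0.06. The 49 tested genes without one had -0.04. The median TPM levels were 2404 and 2329. That rule hangs on the exact annotated base: Rpl27a, counted as without, has a run of 16 pyrimidines that begins with T at its start. Genes without a TOP start by this rule are therefore not shown to lack the motif.

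Samd14 was lower in every shSamd14 library, as the labels say. Its CPM, counts scaled to the size of the library, were 82.0, 82.1 and 83.8 in the control libraries and 41.9, 38.8 and 39.4 in the shSamd14 libraries, which gives -1.05 on the log2 scale (SE 0.06, p 4.69e-07 by edgeR's quasi-likelihood test after Benjamini-Hochberg adjustment, called the edgeR adjusted p from here on). Library totals lay between 20584169 and 26462797 counts. The summed CPM of 7 maturing erythroid markers ran from 1991 to 2706 in control and from 2712 to 3132 in shSamd14 libraries, with none of the 7 called. The 6 megakaryocyte markers summed to 211 to 236 CPM and 276 to 283 CPM, with Pf4 called higher. The 5 progenitor markers (Kit, Cd34, Gata2, Myb and Flt3) were all detected and summed to 991 to 1163 CPM with the control shRNA and 978 to 990 CPM in shSamd14 libraries. Sums for neutrophil, mast cell, macrophage and hepatocyte markers overlapped between the groups, those for endothelial markers did not (11.7 to 13.6 and 13.7 to 17.2 CPM), and the 3 B lymphoid markers stayed under 1 CPM in sum. How far these cell types bear on the ribosomal protein values was not tested, and in bulk RNA fewer cells of a type and less RNA per cell cannot be told apart.

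Ribosomal protein mRNA filled a large part of each library. As a share of all counts, the 84 genes held 8.10%, 9.05% and 9.27% in the control libraries and 9.13%, 8.55% and 8.45% in the shSamd14 libraries. The groups overlapped: the lowest and the highest share both came from control libraries. The means were 8.81 ± 0.623% and 8.71 ± 0.369% (SD, n = 3 each), a difference smaller than either SD. Its direction rested on single libraries: the difference of -0.0989 percentage points was -0.4531 without control 1, and 0.0252, 0.1313 and 0.0323 without control 2, control 3 or shSamd14 3. On the TPM scale the same genes held 20.8 ± 1.01% and 20.5 ± 0.678%.

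**Figure D1:**
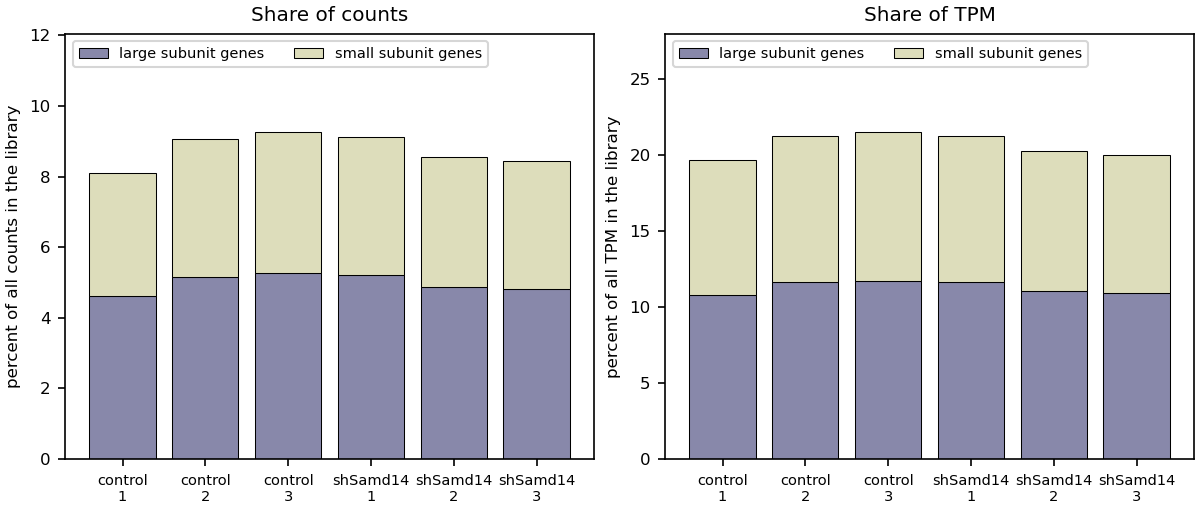
Percent of all counts (left) and of all TPM (right) in ribosomal protein genes in each of the 6 libraries, stacked by large and small subunit. The count share runs from 8.10% in control 1 to 9.27% in control 3, and the shSamd14 libraries lie between them.

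The balance of the subunits was almost the same in every library. Large subunit genes held 5.02 ± 0.344% of counts in control and 4.95 ± 0.214% in shSamd14 libraries, and small subunit genes 3.79 ± 0.279% and 3.75 ± 0.155% (SD, n = 3 each). The ratio of summed large to summed small subunit counts was 1.33, 1.33 and 1.32 in the control libraries and 1.32, 1.32 and 1.32 in the shSamd14 libraries. On the log2 scale the mean ratio was 0.405 ± 0.0089 and 0.40 ± 0.0027, and the groups overlapped. So while the total share differed between single libraries by more than 1 percentage point, the ratio of the subunits moved by little.

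Levels differed far more between genes than between libraries. On the TPM scale 73 of the 84 genes had a mean of 1000 or more, 6 lay between 100 and 1000 and 5 lay under 100. The median of the mean levels was 2144 TPM for large and 2994 TPM for small subunit genes. Rplp1, an acidic protein of the stalk that recruits translation factors, was the highest of all at 5581 ± 609 TPM in control and 5631 ± 569 TPM in shSamd14 libraries. Next among large subunit genes were Rplp0, the base of that stalk, with 4528 ± 287 and 4700 ± 205 TPM, and Rpl32 with 4456 ± 223 and 4386 ± 125 TPM. Rplp0 was above Rpl32 in every library, by little in control 1 (4201 and 4198 TPM), and the difference between the 2 genes was not tested.

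Among small subunit genes Rps24, one of the Diamond-Blackfan anaemia genes, was the highest, at 4971 ± 175 TPM in control and 4667 ± 290 TPM in shSamd14 libraries. Rps6, the protein that S6 kinases phosphorylate, followed with 4474 ± 163 and 4357 ± 56.0 TPM, and Rps2, a protein near the mRNA entry of the small subunit, with 4319 ± 152 and 4507 ± 153 TPM. Within libraries their order was steady but differed between the groups. Rps6 was above Rps2 in every control library, at 4291, 4605 and 4525 TPM against 4146, 4429 and 4382 TPM. It was below Rps2 in every shSamd14 library, at 4400, 4294 and 4377 TPM against 4681, 4392 and 4449 TPM. The difference between the 2 genes was not tested. TPM also depends on the length in the tables: Rps20 is listed with 3706 bases and averaged 460 TPM, although its mean of 1025 CPM was near that of Rps19.

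**Figure D2:**
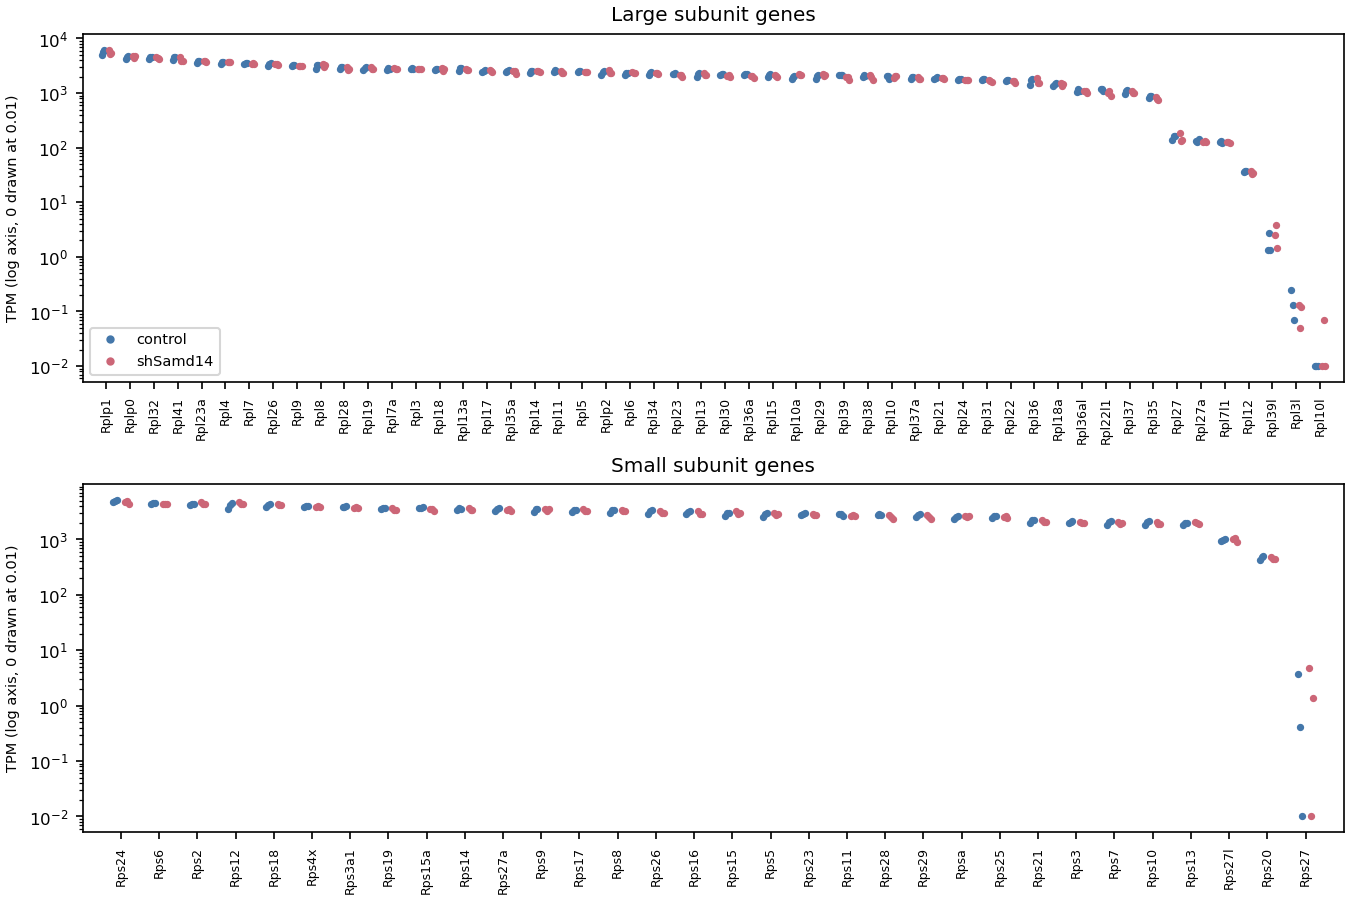
TPM of each of the 84 genes in each library on a log axis, large subunit genes above and small subunit genes below, ordered by mean level; control libraries are blue, shSamd14 libraries red, and 0 is drawn at 0.01. Most genes lie above 1000 TPM, with a tail of paralogs, genes that share sequence with another gene ID, and Rps20.

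None of the tested ribosomal protein genes passed the test between shSamd14 and control. Of the 84 genes, 81 had enough counts (50 large and 31 small subunit genes), with Rpl3l, Rpl10l and Rps27 left out. The call, an edgeR adjusted p under 0.05, was met by 0 of the 81 genes, where 2.58% of all 12670 tested genes met it (1.32% higher and 1.26% lower in shSamd14). At an unadjusted p under 0.05 there were 2 genes, Rpl22l1 and Rpl39, where 15% of all tested genes passed. DESeq2 called 0 of the 81, with 4 at an unadjusted p under 0.05, and limma on voom weights or on TPM also called 0.

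The intervals were narrow. For 75 of the 81 genes, 92.6%, the 95% interval of the fold change, taken gene by gene, lay between 0.8 and 1.25, against 52.8% of all tested genes. The 6 exceptions were Rpl22l1, Rpl39, Rpl27, Rpl36, Rpl39l and Rps12. The share over all tested genes takes in genes of every level. In the same CPM range, 3917 other genes had a smaller median SD within groups, 0.0770 on the log2 scale against 0.109. Log2 fold changes ran from -0.25 for Rpl22l1 to 0.23 for Rpl39l, and 61 of the 81 were negative. The median was -0.04 for large and -0.04 for small subunit genes, beside 0.01 over all tested genes. That lean to negative values rested on single libraries: 79 of 81 genes were negative without control 1, 75 of 81 without shSamd14 1, and 45, 46 and 47 of 82 without shSamd14 3, control 2 or control 3.

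**Figure D3:**
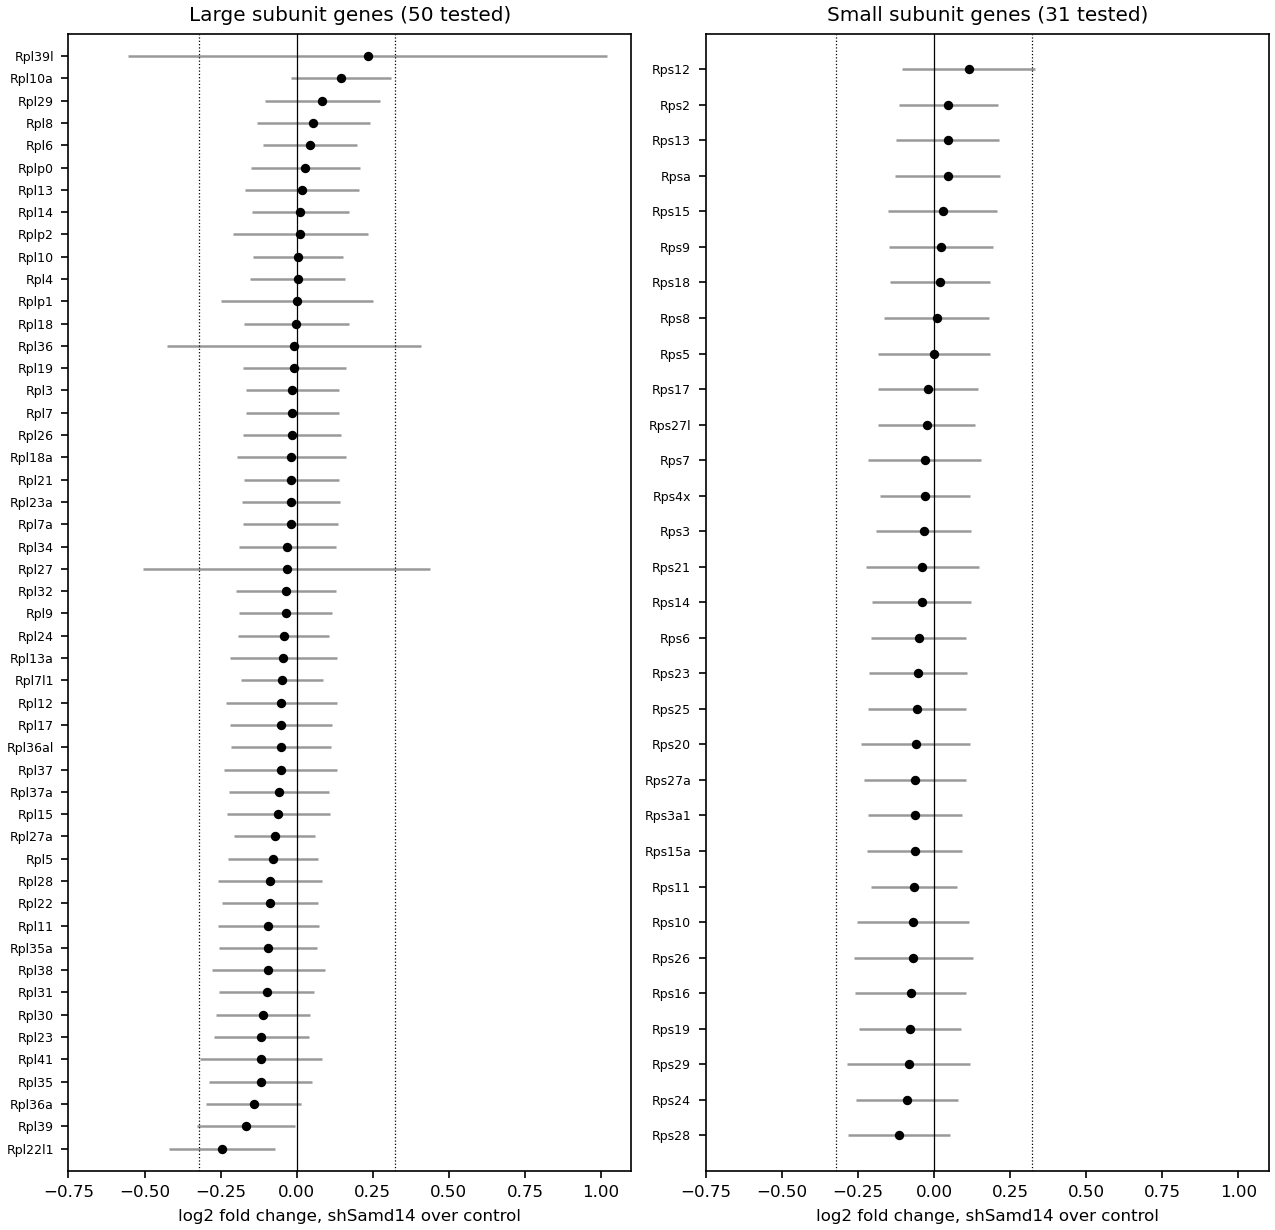
Log2 fold change of shSamd14 over control for the 50 large and 31 small subunit genes tested, with 95% intervals from edgeR; dotted lines mark a 1.25-fold change either way. The interval of every gene except Rpl22l1 and Rpl39 contains 0, and the widest intervals belong to Rpl39l, Rpl27 and Rpl36.

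Rpl22l1, a paralog of the RNA-binding large subunit protein Rpl22, had the smallest p of the set. The gene lies on chromosome 3 from 28805436 to 28807424 (GRCm38). Its CPM was 300.3, 317.9 and 296.8 in the control libraries and 271.8, 278.7 and 221.0 in the shSamd14 libraries. Every shSamd14 library was below every control library, and shSamd14 3 was the lowest. The log2 fold change was -0.25 (SE 0.08, edgeR adjusted p 0.149), which does not pass. Over the alternatives the adjusted p ran from 0.021 to 0.333, and the log2 fold change was -0.15 without shSamd14 3. Its parent Rpl22 had 439.8, 495.5 and 485.0 CPM with the control shRNA and 475.1, 454.4 and 406.1 CPM in shSamd14 libraries, groups that overlap, with a log2 fold change of -0.09.

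Rpl39, a small protein that lines the exit tunnel for the growing polypeptide, was the only other gene whose groups did not overlap. Non-overlapping groups were thus seen in 2 of 81 genes, both lower in shSamd14, where 20.7% of all tested genes had them and 10.2% were lower. Rpl39 lies on chromosome X from 37082520 to 37085402 and had 683.1, 722.1 and 738.4 CPM with the control shRNA and 668.9, 671.6 and 568.0 CPM in shSamd14 libraries. The lowest control and the highest shSamd14 library lay close together, and shSamd14 3 was again the lowest library. The log2 fold change was -0.17 (SE 0.08, edgeR adjusted p 0.309) and -0.10 without that library.

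The other proteins of the large subunit described by role gave values near 0. The 3 stalk genes, none called, had log2 fold changes of 0.03 for Rplp0, 0.00025 for Rplp1, which turns negative with other size factors, and 0.01 for Rplp2. All 3 were negative without control 1 or without shSamd14 1. Rpl5 and Rpl11, which carry the 5S ribosomal RNA into the subunit and can bind Mdm2, had -0.08 and -0.09. For Rpl11 the CPM was 870.0, 992.1 and 955.3 in control and 964.3, 838.2 and 839.1 in shSamd14 libraries, so the highest shSamd14 library lay above 2 control libraries. Of the 9 exit tunnel genes 8 were negative and 0 called, with a median log2 fold change of -0.05.

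At the upper end, Rpl10a, the protein of the L1 stalk near the tRNA exit, had 838.7, 958.8 and 977.2 CPM with the control shRNA and 1091.7, 1000.01 and 976.7 CPM in shSamd14 libraries. Its groups overlapped narrowly, and the log2 fold change was 0.15 (SE 0.08, edgeR adjusted p 0.404). Rpl29 stood at 0.08 on the log2 scale, and at the lower end Rpl36a, a protein at the tRNA exit site, stood at -0.14 (edgeR adjusted p 0.382).

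Small subunit genes, grouped by position in the particle, also stayed near 0. Of 14 genes for proteins of the head, 11 were negative and 0 called, with a median log2 fold change of -0.06. Of 16 tested genes for the body and platform, 11 were negative and 0 called, with a median of -0.04. The smallest p of the head genes was that of Rps28, a protein near the mRNA exit, with 494.9, 555.0 and 546.9 CPM with the control shRNA and 546.6, 476.6 and 451.7 CPM in shSamd14 libraries. Its groups overlapped, and the log2 fold change was -0.11 (edgeR adjusted p 0.549).

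Rps12, a head protein, was the highest of the small subunit fold changes and its value depended on 1 library. It had 869.8, 1088.5 and 1172.7 CPM with the control shRNA and 1216.0, 1089.9 and 1082.8 CPM in shSamd14 libraries. Control 1 was far below the other 5 libraries. The log2 fold change of 0.11 (SE 0.10) became -0.01 without control 1. Rpsa, Rps2, Rps4x and Rps6 of the body had log2 fold changes of 0.04, 0.05, -0.03 and -0.05.

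The ribosomal genes mutated in Diamond-Blackfan anaemia did not pass the test either. All 18 tested genes of the 19 listed had negative log2 fold changes, where 61 of all 81 tested ribosomal protein genes did. The values ran from -0.12 for Rpl35 to -0.0012 for Rpl18, and 0 were called. Their median was -0.07 beside -0.04 over all ribosomal protein genes. With the counts of gene IDs that share part of their sequence added, 18 of 19 were negative. Rpl35 was then at -0.01 and Rpl27 at 0.04. With libraries left out in turn, 13 of 19 were negative without control 3 and all 18 without control 1 or shSamd14 1. Rps19, the gene most often affected in patients, had 947.6, 1090.0 and 1112.5 CPM with the control shRNA and 1071.8, 955.0 and 958.2 CPM in shSamd14 libraries. The groups overlapped, and the log2 fold change was -0.08 (SE 0.08). Rps14, Rps26 and Rps24 had -0.04, -0.07 and -0.09. Together the listed genes took 1.62 ± 0.112% of counts in control and 1.55 ± 0.080% in shSamd14 libraries (SD, n = 3 each).

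Paralogs of ribosomal proteins ranged from ordinary members of the set to genes barely detected. On the TPM scale Rpl22l1 averaged 1076 beside 1665 for its parent Rpl22, so in these cells the paralog reached a level of the same order. Rps27l, a paralog of Rps27 known as a p53 target, averaged 990 TPM, and Rpl7l1 averaged 126 TPM. Rpl39l averaged 2.19 TPM, near 1 CPM in each library, and its log2 fold change of 0.23 had an SE of 0.37. Rpl3l, the paralog of striated muscle, stayed under 0.15 CPM, and Rpl10l, a paralog known from testis, was at 0 in 5 libraries. The paralogs Rpl7l1, Rpl36al and Rps27l had log2 fold changes of -0.05, -0.05 and -0.02, and the parents Rpl7 and Rpl36a had -0.01 and -0.14.

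Several low values in this gene set belong to genes that share sequence with another gene ID in the tables. RSEM shares a read that maps to several genes among them in proportion, so near-identical copies can take counts from a ribosomal protein gene. Measured in words of 50 bases of the annotated transcripts, 44 of the 84 genes shared none with other gene IDs, 29 shared at least 10% and 12 at least 50%. Of 56 copies that held at least 10% of a gene's words, 6 had 50000 or more counts over the 6 libraries.

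Rps27 was the extreme case: it had 0 to 0.56 CPM, while Rps27rt, which holds 98.7% of its words, had 601 ± 43.8 CPM with the control shRNA and 549 ± 43.8 CPM in shSamd14 libraries. Gm10275 held 97.7% of the summed counts of Gm10275 and Rpl12, and Rpl27-ps3 held 91.8% of those of Rpl27-ps3 and Rpl27. Gm7536 held 89.4% of the summed counts of Gm7536 and Rpl27a, and Rpl10-ps3 held 60.5% of those of Rpl10-ps3 and Rpl10. The levels of Rpl12, Rpl27 and Rpl27a, 35.8, 154 and 131 TPM, rest on this assignment of reads. For Rpl35 the share on Gm2000 was 31.6%, 35.9% and 38.2% in the control libraries and 38.7%, 41.0% and 41.6% in the shSamd14 libraries. It was higher in every shSamd14 library, by a narrow margin. The share of Rps12 on Rps12-ps3 went the other way, also without overlap. It was 36.4%, 35.3% and 32.8% in the control libraries and 31.6%, 32.4% and 32.6% in the shSamd14 libraries. Whether the assignment of reads gave these differences was not tested.

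With each copy's counts added to its gene, a check chosen after seeing the data, 0 of 82 genes were called. The log2 fold change of Rps27 with Rps27rt was then -0.14 (edgeR adjusted p 0.450). Rpl35 moved from -0.12 to -0.01, Rps12 from 0.11 to 0.05, Rpl27 from -0.03 to 0.04 and Rpl12 from -0.05 to 0.04. The copies together held 0.533 ± 0.0471% of counts in control and 0.538 ± 0.0229% in shSamd14 libraries.

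**Figure D4:**
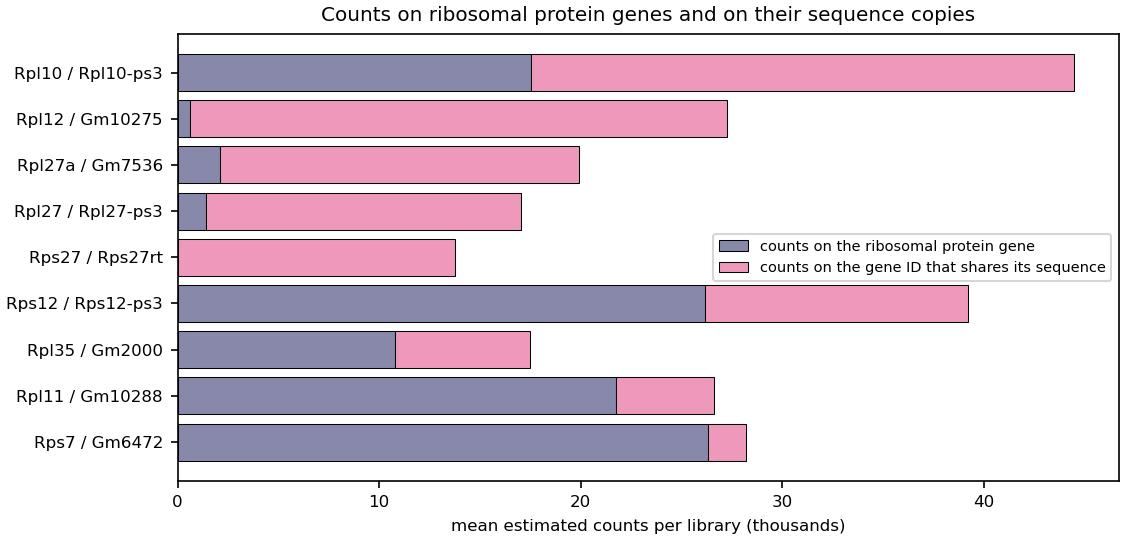
Mean estimated counts per library, on an axis in units of 1000 counts, on 9 ribosomal protein genes and on the gene ID that shares sequence with each. Nearly all counts of the pairs Rps27 / Rps27rt and Rpl12 / Gm10275 lie on the copy, and about 6.62% of those of Rps7 / Gm6472.

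Ribosomal protein genes moved together from library to library within both groups. Relative to each gene's mean over the 6 libraries, the median log2 CPM of the 81 genes was -0.11, 0.08 and 0.09 in the control libraries and 0.08, -0.03 and -0.09 in the shSamd14 libraries. Control 1 was the lowest of the 6 libraries for 49 of the 81 genes and shSamd14 3 for 27, while control 3 was the highest for 36. Control 1 had the fewest counts of the 6 libraries and shSamd14 3 the most, and the part of depth in these positions was not tested. The spread within groups was a median SD of 0.109 on the log2 scale, against 0.0770 for the 3917 other genes in the same CPM range. After the median of the ribosomal protein genes in each library was subtracted, that SD was 0.0432. Over the 6 libraries, the median Pearson r between pairs of the 79 genes at 50 CPM or more was 0.848, a description in which all pairs share libraries and scaling.

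**Figure D5:**
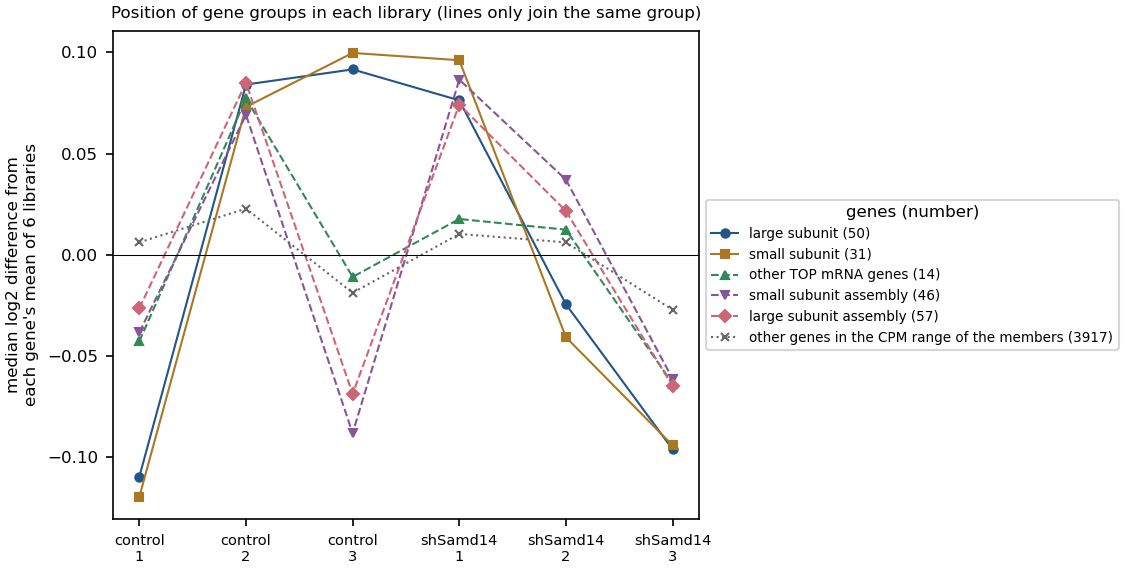
Median log2 difference of gene groups from each gene's mean over 6 libraries; points are libraries and lines only join points of one group. Large and small subunit genes lie together, lowest in control 1 (-0.11 and -0.12), while the 2 groups of assembly factor genes are at their lowest in control 3.

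Assembly factor genes had medians of the same sign as the ribosomal protein genes in 4 of the 6 libraries, and of the opposite sign in control 3 and shSamd14 2. In control 3, where large and small subunit genes were at 0.09 and 0.10, the 46 small subunit assembly genes had a median of -0.09 and the 57 large subunit assembly genes -0.07. In shSamd14 2 these assembly genes had 0.04 and 0.02. The 14 other genes with TOP mRNAs, such as elongation factors and Npm1, had -0.04, 0.08 and -0.01 in the control libraries and 0.02, 0.01 and -0.06 in the shSamd14 libraries. Their share of counts was 3.03 ± 0.0735% in control and 2.97 ± 0.0402% in shSamd14 libraries, 11 of 14 had negative log2 fold changes and 0 were called. With 1 library left out at a time, between 8 (without shSamd14 3) and all 14 (without control 1) of these genes were negative. Hnrnpa1 had the smallest p of these, with a log2 fold change of -0.13 (edgeR adjusted p 0.474).

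In the lists around the ribosome 2 genes passed the test, 1 of 46 small subunit assembly genes and 1 of 21 genes of mTORC1 and TOP mRNA control, where 2.58% of all tested genes passed. Utp6, a component of the small subunit processome that handles early ribosomal RNA, rose: it had 88.4, 95.9 and 88.3 CPM with the control shRNA and 150.3, 154.7 and 141.9 CPM in shSamd14 libraries, which gives a log2 fold change of 0.71 (SE 0.06, edgeR adjusted p 3.00e-05). Its groups lay far apart. Of the 46 small subunit assembly genes 31 had positive log2 fold changes, and the median was 0.04 (-0.01 without control 3 or shSamd14 1). Ddit4, an inhibitor of mTORC1, fell from 151.1, 118.1 and 144.0 CPM in control to 112.3, 94.2 and 96.5 CPM in shSamd14 libraries, which gives a log2 fold change of -0.45 (SE 0.10, edgeR adjusted p 0.0408). The groups did not overlap, but the call was lost without control 1 (adjusted p 0.136), control 3, shSamd14 2 or shSamd14 3, with upper-quartile scaling, and in limma on TPM.

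The lists of large subunit assembly, RNA polymerase I, ribosomal stress and ribosome rescue genes had no call. Of 57 large subunit assembly genes 33 were positive, with a median log2 fold change of 0.01. With 1 library left out at a time, that median took both signs, from -0.04 without shSamd14 1 to 0.05 without control 2. The smallest p there was that of Rsl24d1, a factor related to Rpl24 that occupies its place during assembly. It had 116.5, 127.8 and 109.9 CPM with the control shRNA and 139.9, 140.9 and 129.9 CPM in shSamd14 libraries, which gives a log2 fold change of 0.21 (edgeR adjusted p 0.124), with groups that did not overlap. Of 16 genes of RNA polymerase I and its factors 10 were negative, with Taf1d at -0.15. Of the 21 genes of mTORC1 and TOP mRNA control, Ddit4 among them, 12 were positive. Of 10 genes of ribosomal stress and p53, 7 were negative, with Mdm2 at -0.23 (edgeR adjusted p 0.132). In that list 4 of 10 had an unadjusted edgeR p under 0.05, where 15% of all tested genes did. Groups did not overlap for 3 of the 10, each lower in shSamd14, where 10.2% of all tested genes were lower without overlap. Of 10 genes of ribosome rescue 7 were positive, with Ltn1 at -0.14.

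Ribosomal proteins that carry other names had log2 fold changes within the range of the 81 tested genes. Rack1, a small subunit protein that docks signalling kinases, had a log2 fold change of 0.06, which was -0.02 without control 1. Fau, a fusion of a ubiquitin-like protein and a small subunit protein, had -0.13, toward the lower end of that range. Its SE of 0.15 was above the median of 0.08 for the 81 genes. Neither was called.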

How the data were processed

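Polyadenylated RNA from 3 control and 3 shSamd14 libraries was sequenced. The tools listed in the submitters' processing notes are RSEM 1.2.15, Bowtie 1.0.1 and CASAVA 1.8.2, with the build mm10; the sources used here do not give annotation release, read length or strand use. The authors deposited 1 table per library that holds, per the file headers, the expected count, TPM and effective length of each gene.

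Symbols, gene types and coordinates came from GENCODE M21 (GRCm38). Rounded expected counts went into edgeR 4.0.16 (R 4.3.3): filterByExpr (minimum count 10, minimum total 15) left 12670 genes, and TMM factors lay between 0.986 and 1.021. The comparison used its quasi-likelihood test (two-sided) and Benjamini-Hochberg adjustment over all 12670 genes; an adjusted p under 0.05 is a call. The coefficient of biological variation was 7.52%. CPM are TMM-scaled; shares are percent of unscaled expected counts or of TPM. Totals of 20584169 to 26462797 counts make counting error small for all but the lowest genes.

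Alternatives used DESeq2 1.42.0, limma 3.58.1 on voom weights and on log2(TPM + 1) or log2(TPM + 0.1), other scalings, filters and libraries left out. The steps were tested on simulated data. The members and gene lists were chosen with earlier results of these data known. The text names Samd14, role-defined members and paralogs, per subunit the 3 genes with the smallest p, the 3 with the highest TPM and the 2 largest fold changes each way at 1 CPM or more, and per list the calls or the smallest p. Other members were named after their values were seen, for their copies, sequences or interval. A withheld item is not reported here.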

Additional observations from a re-analysis of the deposited data

How the results depend on the processing

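No ribosomal protein gene was called under any alternative except the fit with the replicate number as a block, which called 1, Rpl22l1 (-0.25 on the log2 scale, adjusted p 0.021), and 682 genes in all, Rsl24d1 among them. By plan, the main fit did not take the numbers as pairs. Same-numbered libraries had correlations of -0.092, 0.219 and 0.38 in their deviations. Correlations between libraries of different number were not computed, so these values cannot settle whether the numbers mark pairs. The count of all genes called was 168 and 170 with limma on log2(TPM + 1) and log2(TPM + 0.1), and from 128 (without shSamd14 2) to 283 with 1 library left out, with 153 without control 1. The difference in the log2 ratio of large to small subunits was 0.0152 with median log2 CPM, against -0.0048; the cause was not tested. The direction of the 81 genes rests on single libraries, and none of the sign changes below belongs to a called gene.

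With 1 library left out at a time, the log2 fold changes of these genes, none of them called, took both signs. They ran from -0.018 to 0.098 for Rack1, -0.048 to 0.055 for Rpl10, -0.018 to 0.134 for Rpl29, -0.062 to 0.024 for Rpl3, -0.105 to 0.004 for Rpl32 and -0.126 to 0.006 for Rpl36al. They also ran from -0.15 to 0.657 for Rpl39l, -0.069 to 0.01 for Rpl7, -0.084 to 0.005 for Rpl7l1, -0.056 to 0.075 for Rplp0, -0.117 to 0.079 for Rplp1 and -0.097 to 0.073 for Rplp2. The other ranges were -0.006 to 0.199 for Rps12, -0.013 to 0.078 for Rps2, -0.08 to 0.046 for Rps27l, -0.159 to 0.106 for Rps4l and -0.038 to 0.09 for Rpsa.

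Rplp1 was -0.001 with RLE size factors and in DESeq2, -0.003 with upper-quartile factors or factors from genes outside the set, and -0.007 with copies merged, which gave -0.022 for Rpl10. Rpl7 was 0.003 in limma on TPM with either pseudocount. Groups of 3 libraries limit precision: the median half-width of the 95% interval was 0.16 on the log2 scale. The planned share with ribosomal proteins of other names added is not reported.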
